A study of Homo sapiens with 6 samples.

Results

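The genes described here encode the kinesins and the centromere proteins (CENPs) of THP-1 cells, a human monocytic cell line from an acute myeloid leukemia. A gene was a member if the deposited table calls it protein-coding and its symbol is that of a kinesin (KIF followed by a digit or C) or of a centromere protein (CENP followed by letters and an optional number). The symbols alone chose the members. This gave 62 of the 33981 genes in the table, or 62 of its 17080 protein-coding genes, of which 40 are kinesins and 22 carry a CENP symbol.

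All 6 samples were bulk RNA from 1 line, sorted for GFP on day 4 after lentiviral infection with retronectin. The 3 control samples, C1, C3 and C4, carried a scrambled shRNA per the labels, although the study's methods call the control vector GFP only. Samples N1, N2 and N3 carried an shRNA against NFIC, a transcription factor of the nuclear factor I (NFI) family. The labels do not say whether the 3 samples of a group came from separate cultures, so the p-values below measure the spread between these samples, which may be technical.

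Kinesins are motor proteins that use ATP to move along microtubules. One set of them builds and works the mitotic spindle, slides its microtubules, takes microtubule ends apart at chromosomes and organises the midzone where the cell divides. Another set carries vesicles, mitochondria and other cargo in cells that are not dividing, and a few work in cilia. The centromere is the chromosomal site marked by the histone variant CENP-A, on which the inner centromere proteins assemble, and the outer kinetochore built on them binds the spindle. Transcripts of many spindle and kinetochore genes are low in early cell cycle and peak in G2 and mitosis. In many of their promoters a CCAAT box, bound by NF-Y, stands a short way upstream of a cell cycle genes homology region (CHR), bound by the DREAM and MuvB complexes. NFI proteins bind a different element that contains TTGGC, alone or as a palindrome.

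The promoter sequences below show where these elements stand in 5 spindle and centromere genes (KIF20A, KIF4A, KIF11, KIF18A and CENPA) and in the most abundant transport kinesin (KIF5B). KIF3A and CENPT, which were lower with NFIC shRNA, are shown beside them. Each is the stretch of 150 bases before the RefSeq start site in GRCh38.p14, 5′ to 3′ on the gene's own strand. Capitals mark a CCAAT box (CCAAT, or ATTGG on the other strand) or a CHR (TTTGAA or TTTAAA, or TTCAAA on the other strand). KIF20A is at chr5:138178962-138179111 (plus strand), KIF4A at chrX:70289954-70290103 (plus), KIF11 at chr10:92592980-92593129 (plus), KIF18A at chr11:28108157-28108306 (minus) and CENPA at chr2:26785906-26786055 (plus). KIF5B is at chr10:32056426-32056575 (minus), KIF3A at chr5:132737547-132737696 (minus) and CENPT at chr16:67847694-67847843 (minus).
KIF20A: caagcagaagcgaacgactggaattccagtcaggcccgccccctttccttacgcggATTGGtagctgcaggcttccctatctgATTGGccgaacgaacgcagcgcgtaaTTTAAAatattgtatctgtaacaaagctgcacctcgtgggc
KIF4A: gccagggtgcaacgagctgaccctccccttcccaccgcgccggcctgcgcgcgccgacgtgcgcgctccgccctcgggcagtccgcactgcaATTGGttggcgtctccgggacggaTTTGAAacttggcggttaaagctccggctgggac
KIF11: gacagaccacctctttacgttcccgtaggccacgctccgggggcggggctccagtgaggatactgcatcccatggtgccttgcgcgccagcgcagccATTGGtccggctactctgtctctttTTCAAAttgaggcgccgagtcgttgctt
KIF18A: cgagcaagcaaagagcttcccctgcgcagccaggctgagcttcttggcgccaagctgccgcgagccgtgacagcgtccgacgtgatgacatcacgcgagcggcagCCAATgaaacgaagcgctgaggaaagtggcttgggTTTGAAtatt
CENPA: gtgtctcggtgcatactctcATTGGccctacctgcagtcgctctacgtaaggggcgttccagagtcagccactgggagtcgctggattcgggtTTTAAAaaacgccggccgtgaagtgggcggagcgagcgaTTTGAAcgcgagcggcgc
KIF5B: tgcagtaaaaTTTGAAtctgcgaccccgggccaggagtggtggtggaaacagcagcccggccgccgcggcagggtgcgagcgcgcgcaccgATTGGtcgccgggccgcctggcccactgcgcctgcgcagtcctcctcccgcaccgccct
KIF3A: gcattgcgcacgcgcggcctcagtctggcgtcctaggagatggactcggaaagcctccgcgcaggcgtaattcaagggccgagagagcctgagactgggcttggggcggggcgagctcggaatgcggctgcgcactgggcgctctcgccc
CENPT: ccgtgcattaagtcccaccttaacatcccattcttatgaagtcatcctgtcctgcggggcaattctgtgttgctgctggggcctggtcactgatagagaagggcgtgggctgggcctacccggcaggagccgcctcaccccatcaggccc

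The lines for KIF20A, KIF4A and KIF11 hold an ATTGG followed by a CHR at a distance of 26, 24 and 25 bases, counted from first base to first base, and in KIF18A the distance is 35 bases. In KIF5B the CHR stands before the CCAAT box, farther from the start. KIF3A and CENPT hold none of these elements in the stretch shown.

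The total count per sample was between 20369543 and 24809720. CPM values, each count relative to the sample total, were scaled by TMM factors. A level of 3 counts corresponded to at most 0.147 CPM in a sample, and this limit covers counting error only. The knockdown was checked first. NFIC was at 42.1, 41.4 and 42.2 CPM in C1, C3 and C4 and at 19.4, 22.3 and 21.4 CPM in N1, N2 and N3, which left 50.1% of the scrambled level. The monocytic markers LYZ, SPI1, CSF1R and CD68 were present, with means of 572, 166, 219 and 261 CPM in the scrambled samples. Their means were 940, 178, 146 and 130 CPM in the NFIC shRNA samples. Of 11 monocytic markers 3 were higher and 5 were lower with NFIC shRNA, where 29.6% of all genes tested were higher and 30.3% lower. The markers had a summed level of 2012 to 2193 CPM across C1, C3 and C4 and 2127 to 2201 CPM across N1, N2 and N3. This sum joins markers that moved in opposite directions, so it does not show an unchanged marker profile. Of 14 markers of other cell types, 9 were in the table and 4 could be tested, of which 3 were lower and none higher. They summed to 13.2 to 15.7 CPM in the control samples and to 5.72 to 6.93 CPM in the knockdown samples, and CD3D and HBB were at 0 in all scrambled samples. C3 and N3 stood apart from the other samples of their groups. On principal component 2 of log2 CPM, with 7.37% of the variance, they had scores of -18.0 and -20.5, and the scores of C1, C4, N1 and N2 ran from 4.63 to 15.8. Counts are therefore also given without C3 and N3.

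Of the 62 members 56 had enough counts for edgeR's quasi-likelihood test, and the adjusted p is the Benjamini-Hochberg value over all 19182 genes tested, with a threshold of 0.05. With NFIC shRNA 41 members were higher, 9 were lower and 6 did not pass. Across all genes tested 29.6% were higher and 30.3% were lower. The median log2 fold change of the members was 0.52, against -0.01 over all genes tested. The samples of the groups did not overlap for 50 of the 56 members, where 65.2% of all genes tested showed no overlap. These counts, and the class counts that follow, describe the members that passed the filter on low counts. In bulk RNA, a larger share of cells in G2 or mitosis and more RNA of a gene per cell cannot be told apart.

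**Figure D1:**
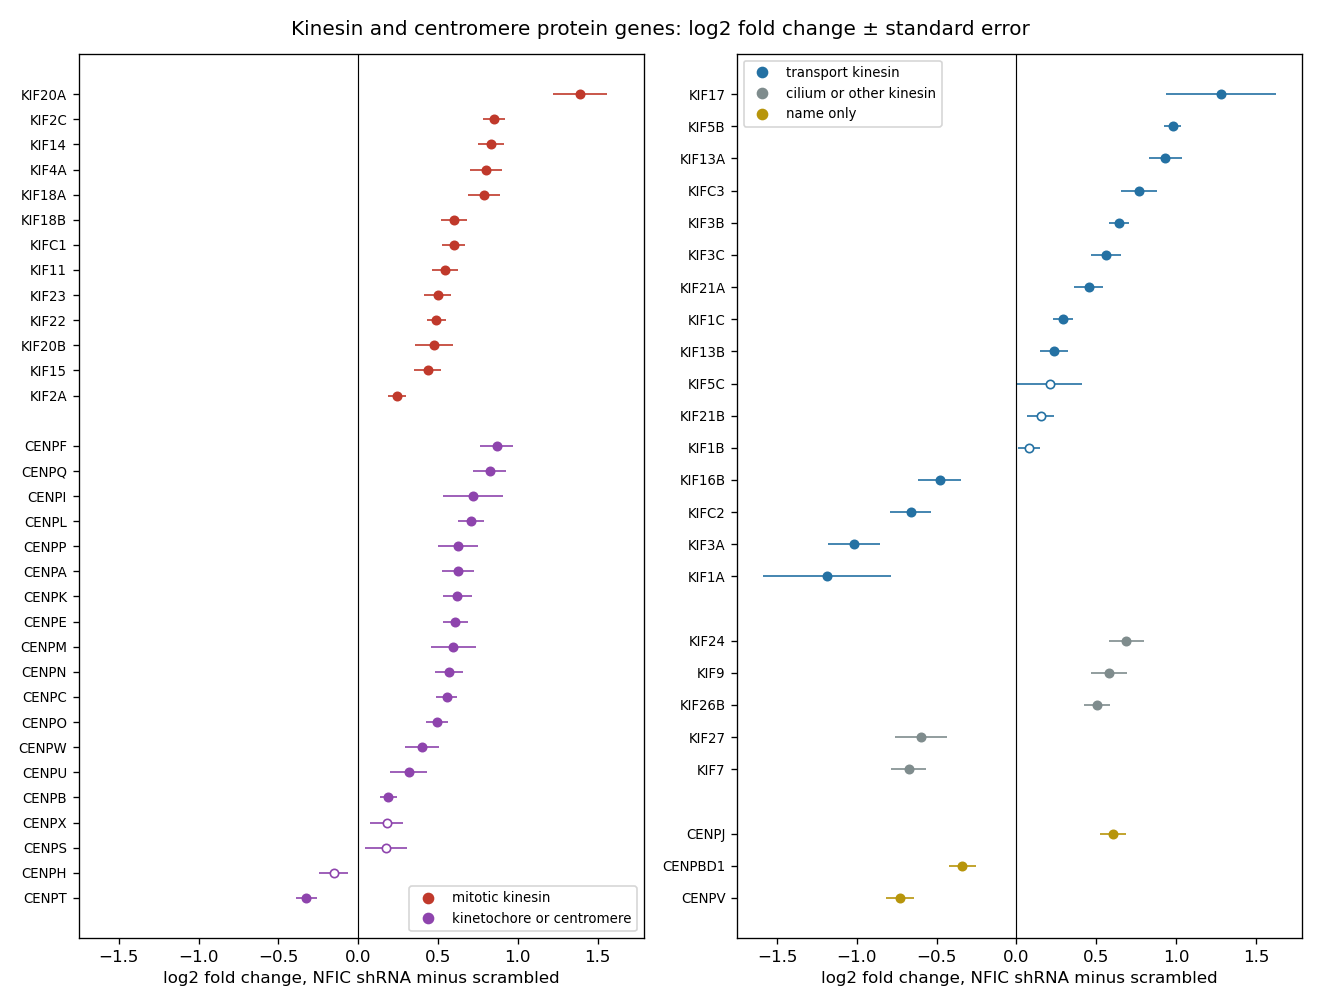
Log2 fold change (NFIC shRNA minus scrambled, x axis) with its standard error for each of the 56 members tested, by class. Filled points passed the adjusted p threshold and open points did not. All 13 mitotic kinesins lie to the right of 0, from 0.24 to 1.39, and the transport kinesins lie on both sides, from -1.19 to 1.28.

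The members fall into classes that were written from general knowledge. Mitotic kinesins moved in 1 direction. All 13 that could be tested were higher with NFIC shRNA, none was lower, and their groups did not overlap. Over all genes tested 29.6% were higher, 30.3% were lower and 65.2% showed no overlap. The log2 fold changes of the 13 ran from 0.24 to 1.39 with a median of 0.60. The count was also 13 without C3 and N3, with a median of 0.60. For all 13 genes N3 was the highest of the NFIC shRNA samples, and for 11 of them C3 was the highest of the scrambled samples. All 13 were also higher when any 1 sample was left out. A rise beyond 1.5-fold was reached by 7 of the 13, and by 2118 of all 19182 genes tested.

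KIF20A (ENSG00000112984, chr5:138178719-138187723 in GRCh38), which brings proteins to the spindle midzone for cytokinesis, changed most. It was at 33.4, 37.7 and 35.2 CPM in C1, C3 and C4 and at 81.9, 76.2 and 120.3 CPM in N1, N2 and N3. N3 lay well above N1 and N2, and each of the 3 lay above every scrambled sample. The log2 fold change was 1.39 (standard error 0.17, edgeR adjusted p = 1.62e-04), and it stayed between 1.16 and 1.52 in the fits that left out 1 sample.

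KIF2C (ENSG00000142945, chr1:44739818-44767767), or MCAK, takes microtubules apart at their ends and had the highest mean level per length among the mitotic kinesins, close to that of KIFC1 in the scrambled samples. Its FPKM, the deposited count per length, was 23.0, 25.5 and 24.2 in C1, C3 and C4, and it was 42.0, 40.5 and 49.99 in N1, N2 and N3. The NFIC shRNA samples were all far above the scrambled ones. Its log2 fold change from the counts was 0.85 (standard error 0.069, edgeR adjusted p = 2.77e-08). KIF14, which works with citron kinase at the midbody, was at 30.2, 34.2 and 30.9 CPM in C1, C3 and C4 and at 52.8, 53.1 and 64.0 CPM in N1, N2 and N3. This is a log2 fold change of 0.83 (standard error 0.080) with an edgeR adjusted p of 1.23e-07, and the groups were far apart.

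KIF4A is a chromokinesin that binds chromosome arms and helps PRC1 to set the length of the midzone. Its levels were 17.6, 18.2 and 15.8 CPM in C1, C3 and C4 against 27.5, 27.4 and 35.1 CPM in N1, N2 and N3, a log2 fold change of 0.80 (standard error 0.10). KIF18A dampens the oscillation of chromosomes at the metaphase plate. It was at 8.41, 7.76 and 8.92 CPM and at 13.7, 14.1 and 15.4 CPM, a log2 fold change of 0.79 (standard error 0.10). Neither gene's groups overlapped, and the edgeR adjusted p was 2.77e-06 for KIF4A and 3.51e-06 for KIF18A. Reads of KIF4A and of KIF4B, its near-identical copy without introns, can be exchanged in counting, and KIF4B had 0 or 1 count in every sample and was not tested.

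The other mitotic kinesins also rose, with smaller log2 fold changes. For KIF18B and KIFC1 the log2 fold change was 0.60. KIFC1 moves toward microtubule minus ends and clusters centrosomes, and its mean FPKM was 23.9 with scrambled and 36.7 with NFIC shRNA. KIF11 (Eg5), which pushes spindle poles apart, had 0.54, and KIF15, which can take over that task, had 0.44. KIF23, the motor of the centralspindlin complex, had 0.50, the chromokinesin KIF22 had 0.49 and KIF20B had 0.47 (0.30 without N3). KIF2A, a relative of KIF2C that also acts in interphase and in neurons, had the smallest rise at 0.24 (standard error 0.058, edgeR adjusted p = 0.00144). Its CPM was 82.2, 82.7 and 83.2 in C1, C3 and C4 against 94.2, 93.8 and 105.8 in N1, N2 and N3, and the groups did not overlap. KIF2A shares 18.7% of its exonic bases in GENCODE release 44 with DIMT1 on the opposite strand. That model holds 13050 bases, against a deposited gene length of 4829, so the overlap in the model that was counted is not known. No source used here states that strand was used in counting.

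**Figure D2:**
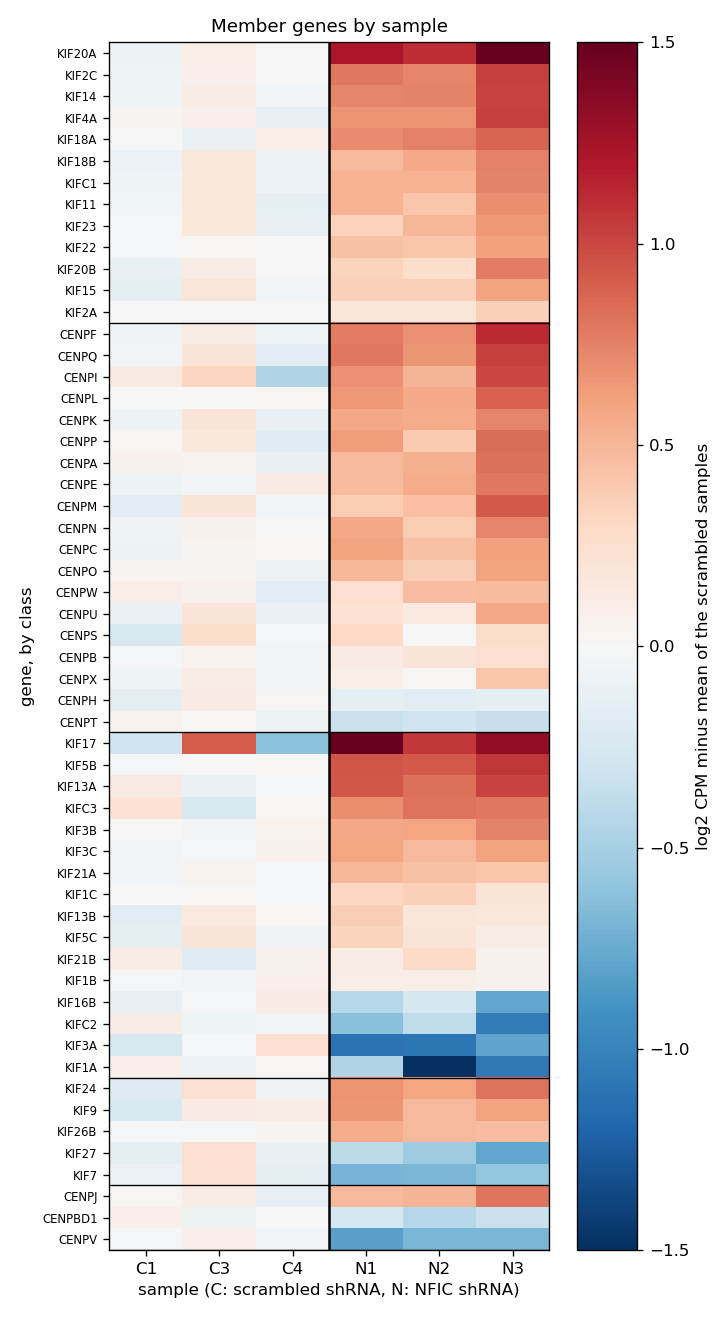
Log2 CPM of each member tested (rows, by class) in each sample (columns), as the difference from the mean of the scrambled samples. The colour scale ends at -1.5 and 1.5. N3 is the darkest red column for the mitotic kinesins, with a median of 0.75 against 0.52 in N1 and 0.53 in N2, and this order is absent among the transport kinesins.

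Most genes of the centromere and kinetochore rose as well. Of the 19 tested, 15 were higher, 1 was lower (CENPT) and 3 did not pass (CENPH, CENPS and CENPX), with a median log2 fold change of 0.57. CENPV, which was lower at -0.73, was not placed in this class. The groups did not overlap for 16 of the 19. Over all genes tested 29.6% were higher, 30.3% were lower and 65.2% showed no overlap. Without C3 and N3 15 of the 19 were higher and 1 was lower, with a median of 0.51. N3 was the highest NFIC shRNA sample for 16 of the 19 and C3 the highest scrambled sample for 13.

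The corona of the kinetochore holds CENPE and CENPF. CENPF (ENSG00000117724, chr1:214603185-214664574), a large coiled-coil protein that also ties dynein to the nuclear envelope, was at 108.6, 121.7 and 107.8 CPM in C1, C3 and C4. In N1, N2 and N3 it was at 191, 181 and 245 CPM. All NFIC shRNA samples were higher than all scrambled ones, N3 most of all. Its log2 fold change was 0.87 (standard error 0.10, edgeR adjusted p = 3.20e-05). CENPE, itself a kinesin motor that moves chromosomes to the metaphase plate, had 0.61 on the log2 scale (standard error 0.078, edgeR adjusted p = 5.14e-06), within the range of the mitotic kinesins.

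CENPA (ENSG00000115163, chr2:26764289-26801067), the histone variant that marks the centromere, was at 15.1, 14.95 and 13.3 CPM in the scrambled samples. With NFIC shRNA it was at 20.3, 20.9 and 25.7 CPM. The groups did not overlap, and the log2 fold change was 0.63 (standard error 0.10, edgeR adjusted p = 3.72e-05). CENPC, which links the CENP-A nucleosome to the outer kinetochore, had 0.55. CENPL and CENPN, which form a complex that reads the CENP-A nucleosome, had 0.71 and 0.57. CENPL was at 25.1, 25.2 and 25.6 CPM and then at 39.6, 37.6 and 46.6 CPM, a gap far wider than the spread within the scrambled samples.

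Within the other inner complexes the calls varied between subunits. In the CENP-O, -P, -Q and -U complex, CENPQ had the largest change, from 19.6, 23.2 and 18.0 CPM to 34.9, 32.0 and 41.0 CPM. Its log2 fold change was 0.82 (standard error 0.10, edgeR adjusted p = 3.87e-06), and no NFIC shRNA sample was as low as a scrambled one. CENPP had 0.63, from 9.43, 10.4 and 8.13 CPM to 14.4, 12.2 and 16.6 CPM (standard error 0.12, edgeR adjusted p = 3.02e-04), and CENPO had 0.49. CENPP shares 39.9% of its exonic bases with IPPK on the opposite strand and CENPO shares 27.0% with ADCY3. CENPU had 0.32 (edgeR adjusted p = 0.0337), its groups overlapped, and the adjusted p rose to as much as 0.111 when 1 sample was left out (scrambled C1 or C4, or N3). Without N3 its log2 fold change was 0.17. In the CENP-H, -I, -K and -M complex, CENPI rose from 4.02, 4.59 and 2.66 CPM to 5.97, 5.26 and 7.45 CPM, a log2 fold change of 0.72 with a standard error of 0.19 (edgeR adjusted p = 0.00323). CENPK and CENPM had 0.62 and 0.60, whereas CENPH had -0.15 (standard error 0.088, edgeR adjusted p = 0.143). CENPH was at 16.1, 19.2 and 17.9 CPM in C1, C3 and C4 and at 16.1, 15.9 and 16.0 CPM in N1, N2 and N3.

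The CENP-T, -W, -S and -X complex, whose subunits have a histone fold, held the 1 lower gene. CENPT (ENSG00000102901, chr16:67828157-67847811) was at 45.9, 44.7 and 41.8 CPM in C1, C3 and C4 and at 35.1, 35.9 and 34.7 CPM in N1, N2 and N3. Every NFIC shRNA sample was below every scrambled one. The log2 fold change was -0.32 (standard error 0.065, edgeR adjusted p = 3.37e-04), and the fits without 1 sample gave -0.37 to -0.30. Its direct partner CENPW was higher, at 0.40 (standard error 0.10, edgeR adjusted p = 0.00312). CENPS and CENPX, at 0.18 and 0.18, did not pass (edgeR adjusted p = 0.261 and 0.144), and their groups overlapped. CENPS shares 65.0% of its exonic bases with the read-through gene CENPS-CORT on the same strand, so its count is uncertain. CENPT shares 10.5% with TSNAXIP1 and 6.71% with THAP11 on the opposite strand.

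CENPB, which binds a motif in centromeric repeats, had the highest FPKM of the class, 31.4 ± 0.978 with scrambled and 36.2 ± 1.78 with NFIC shRNA (SD, n = 3 in each group). Its CPM was 90.9, 95.1 and 89.5 in C1, C3 and C4 and 100.1, 105.2 and 109.0 in N1, N2 and N3. The groups did not overlap, but the log2 fold change was only 0.19 (standard error 0.054, edgeR adjusted p = 0.00575).

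**Figure D3:**
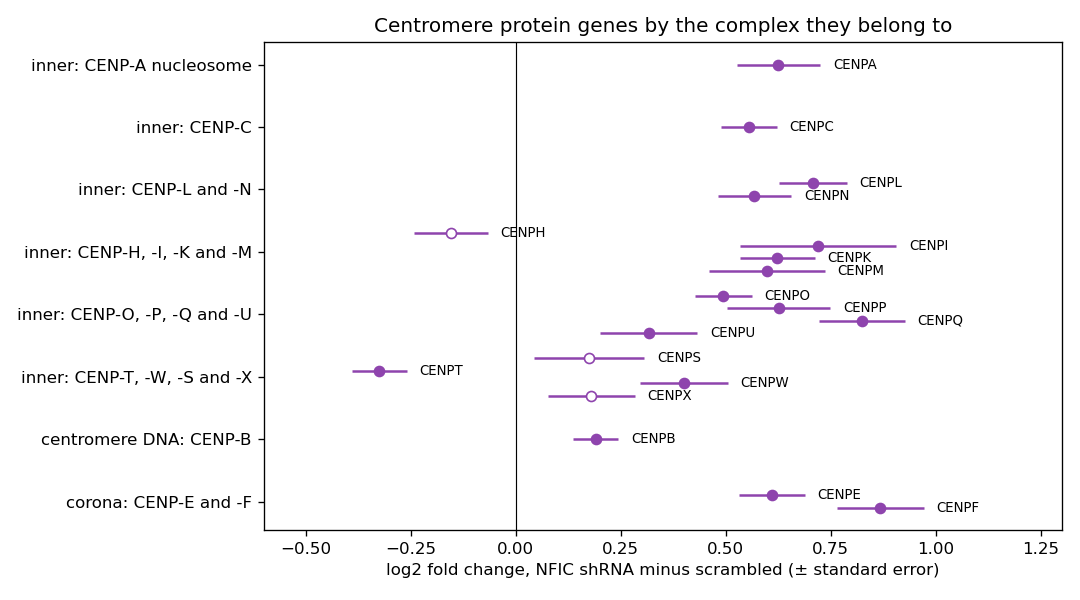
Log2 fold change with standard error for the 19 centromere and kinetochore members, by complex. Filled points passed the adjusted p threshold and open points did not. CENPT, at -0.32, and CENPH, at -0.15, lie to the left of 0 and the other 17 lie to the right.

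Transport kinesins went both ways. Of 16 tested, 9 were higher, 4 were lower (KIF1A, KIF3A, KIFC2 and KIF16B) and 3 did not pass, with a median log2 fold change of 0.26 and a range from -1.19 to 1.28. Groups did not overlap for 13 of the 16, where 65.2% of all genes tested showed no overlap. Among all genes tested 29.6% were higher and 30.3% were lower, so the share of lower transport kinesins was not above the background. Without C3 and N3 9 were higher and 4 lower, with a median of 0.36. N3 was the highest NFIC shRNA sample for 5 of the 16. The spread between samples of a group was alike in the classes, with a median SD of log2 CPM of 0.14 in both the transport and the mitotic kinesins and 0.12 over all genes tested. Whether the classes differ was not tested, since the members of a class are not replicates.

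KIF5B (ENSG00000170759, chr10:32009015-32056425) encodes the heavy chain of conventional kinesin, which carries mitochondria, lysosomes and vesicles outward. It had the highest FPKM of all members. That level was 52.3, 52.9 and 53.9 FPKM in C1, C3 and C4 and 102.6, 101.0 and 113.4 FPKM in N1, N2 and N3. The gap was far wider than the spread within a group, at 1.97-fold by the counts. Its CPM was 311.8, 313.9 and 319.3 and then 606, 594 and 661, a log2 fold change of 0.98 (standard error 0.052, edgeR adjusted p = 8.73e-11). KIF5C, a largely neuronal copy of the same heavy chain, was at 0.19 and 0.23 FPKM and did not pass, with a log2 fold change of 0.21 (edgeR adjusted p = 0.395). KIF5A, also neuronal, had 0 to 7 counts and was not tested.

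KIF3A, KIF3B and KIF3C are motors of the heterotrimeric kinesin that carries cargo in the cytoplasm and builds cilia. KIF3A pairs with KIF3B, and KIF3B was the more abundant. KIF3A (ENSG00000131437, chr5:132692628-132737638) was at 5.59, 6.50 and 7.89 CPM in C1, C3 and C4 and at 3.01, 3.06 and 3.77 CPM in N1, N2 and N3. All 3 NFIC shRNA samples were below the lowest scrambled sample, and the log2 fold change was -1.02 (standard error 0.16, edgeR adjusted p = 3.71e-05). KIF3B (ENSG00000101350, chr20:32277651-32335011) was at 44.6, 43.4 and 46.5 CPM and then at 67.2, 67.5 and 75.1 CPM. Its log2 fold change was 0.64 (standard error 0.063, edgeR adjusted p = 1.34e-07), and the groups were far apart. On the FPKM scale KIF3B exceeded KIF3A by a factor of 8.94, 7.48 and 6.60 in C1, C3 and C4 and of 25.1, 24.8 and 22.3 in N1, N2 and N3. KIF3C, which can pair with KIF3A in place of KIF3B, changed by 0.56 on the log2 scale, from a mean of 1.57 to 2.35 FPKM. KIF17, a homodimeric motor of the same family, had 10 to 37 counts with scrambled and 39 to 57 with NFIC shRNA. Its log2 fold change of 1.28 had a standard error of 0.34 (edgeR adjusted p = 0.00442). C3 held the 37 counts, and the value was 1.99 without C3 and 2.03 without C3 and N3.

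**Figure D4:**
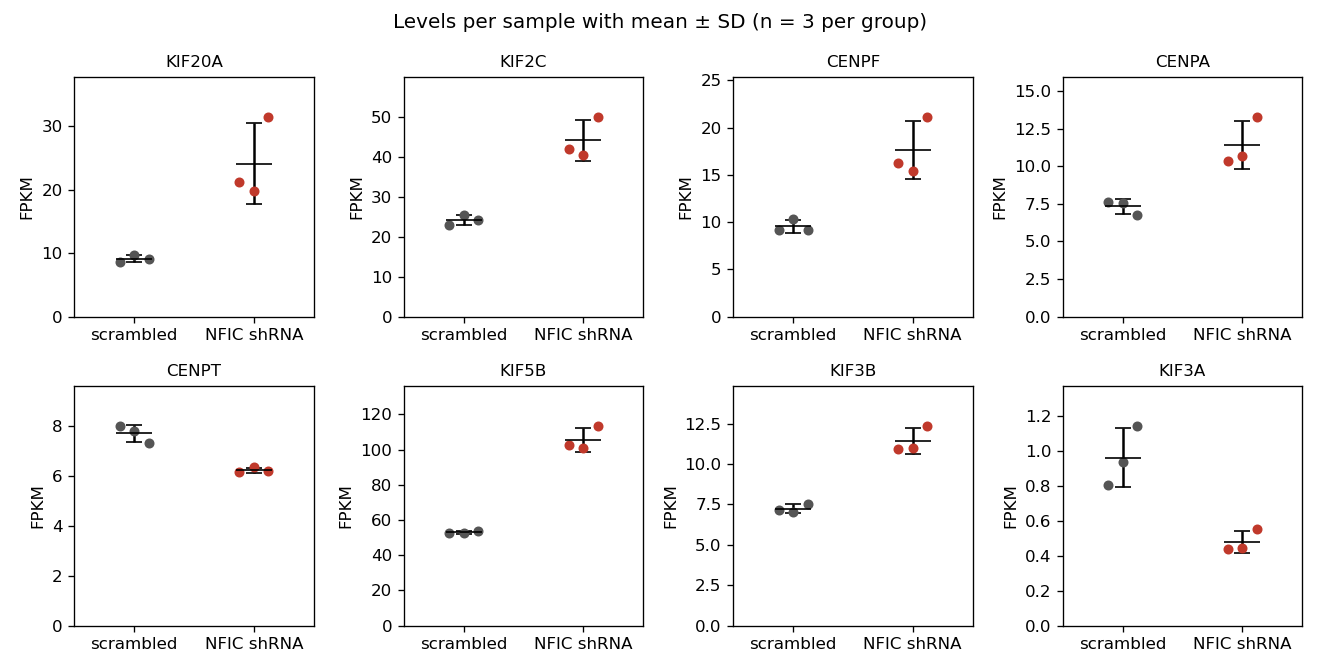
FPKM per sample (points) with the mean and SD of each group for 8 members, with the y axis from 0. KIF5B rises from about 53.0 to 105.7 FPKM, and KIF3A and CENPT are the 2 genes whose NFIC shRNA samples lie below the scrambled samples.

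Among the monomeric and dimeric motors of the KIF1 and KIF13 kind, KIF13A, which moves recycling endosomes and melanosomes, was at 9.06, 7.64 and 8.03 CPM with scrambled shRNA. With NFIC shRNA it was at 15.8, 14.7 and 16.7 CPM, a log2 fold change of 0.93 (standard error 0.10, edgeR adjusted p = 5.64e-07). The groups were well apart. KIF1C had 0.29 and KIF13B had 0.24, and KIF13B passed with an edgeR adjusted p of 0.0280 but stood at 0.178 without scrambled C1 (log2 fold change 0.15), at 0.0629 without C4 and at 0.146 without N1. KIF16B, an early endosome motor, was lower, from 9.20, 9.79 and 10.8 CPM to 7.33, 8.27 and 5.72 CPM. That is a log2 fold change of -0.48 (standard error 0.13, edgeR adjusted p = 0.00471). KIF1B had 0.08 and did not pass (edgeR adjusted p = 0.342). KIF1A, a motor of synaptic vesicle precursors, had 19, 19 and 18 counts in C1, C3 and C4 and 12, 4 and 8 in N1, N2 and N3. At these counts its log2 fold change of -1.19 had a standard error of 0.40, and the adjusted p was 0.0165 from edgeR, 0.0890 without N2 and 0.0847 from DESeq2.

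The remaining transport kinesins also split. KIFC3, a minus-end motor at cell junctions and the Golgi apparatus, was at 9.89, 7.23 and 8.59 CPM with scrambled and at 13.9, 15.1 and 14.7 CPM with NFIC shRNA, a log2 fold change of 0.77 (standard error 0.11, edgeR adjusted p = 1.51e-05). KIFC2 went the other way, from 28.3, 24.99 and 25.5 CPM to 17.0, 20.1 and 12.6 CPM, a log2 fold change of -0.66 (standard error 0.13, edgeR adjusted p = 6.78e-04). N3 was the lowest of the KIFC2 values and the groups did not overlap. KIFC2 shares 17.8% of its exonic bases with FOXH1 on the opposite strand. KIF21A, a brake on microtubule growth, had 0.45, while its relative KIF21B, found in neurons and lymphoid cells, had 0.15 and did not pass (edgeR adjusted p = 0.124).

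The summed level of the kinesins was higher in every NFIC shRNA sample than in every scrambled one. Summed FPKM of the mitotic kinesins was 141 to 158 across C1, C3 and C4 and 216 to 267 across N1, N2 and N3, and that of the transport kinesins was 84.5 to 86.9 and 140.3 to 151.5. The groups did not overlap for either sum. Mitotic kinesins made up 60.4%, 62.7% and 60.1% of the kinesin FPKM in C1, C3 and C4 and 59.3%, 59.2% and 62.4% in N1, N2 and N3. These shares overlapped, with means of 61.1% ± 1.41 and 60.3% ± 1.81 (SD, n = 3 in each group), and C3 and N3 had the highest share of their groups. KIF5B alone made up 22.4%, 21.0% and 22.6% of the kinesin FPKM in C1, C3 and C4 but 27.8%, 27.7% and 26.5% in N1, N2 and N3, without overlap. These are shares of a sum, in which a few abundant genes weigh most.

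Of the 9 kinesins of cilia or of less clear class, 5 could be tested. KIF7, which acts at the cilium tip in hedgehog signalling, was at 15.6, 19.6 and 14.99 CPM and then at 10.2, 10.3 and 11.01 CPM, a log2 fold change of -0.68 (standard error 0.11, edgeR adjusted p = 4.12e-05). Its groups were apart. Its mean FPKM of 3.30 was the highest of these 5 with scrambled shRNA, but with NFIC shRNA KIF24 was higher, at 3.00 against 2.09. Its paralog KIF27 was also lower, from 4.85, 6.38 and 4.95 CPM to 4.03, 3.66 and 3.08 CPM, at -0.60 (edgeR adjusted p = 0.00425). Without C3 and N3 the KIF27 value was -0.35 and the adjusted p 0.0899. KIF24, which removes tubulin at the mother centriole and holds back cilium formation, was higher, from 9.89, 13.4 and 10.9 CPM to 18.1, 17.1 and 19.98 CPM, at 0.69 (standard error 0.11, edgeR adjusted p = 3.65e-05). KIF9, of motile cilia, had 0.58 and KIF26B had 0.50, and both were higher. KIF9 rose from 6.98, 8.90 and 8.83 CPM to 12.95, 11.5 and 12.5 CPM, and KIF26B from 14.8, 14.95 and 15.5 CPM to 22.3, 21.2 and 20.8 CPM. KIF12, KIF19, KIF25 and KIF26A had at most 6 counts in any sample and were not tested.

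A further 3 members carry a CENP symbol but were placed outside the centromere and kinetochore class. This placing was made from general knowledge with earlier results known, and no refit moved CENPV into that class. CENPJ (CPAP), which builds centrioles, was at 43.0, 45.9 and 39.2 CPM and then at 59.7, 60.7 and 74.3 CPM, a log2 fold change of 0.60 (standard error 0.084, edgeR adjusted p = 1.16e-05). CENPV was lower, from 17.7, 19.0 and 17.6 CPM to 10.2, 11.2 and 11.2 CPM, at -0.73 (standard error 0.090, edgeR adjusted p = 2.19e-06). CENPBD1, which shares only a DNA-binding domain with CENPB, was at 19.9, 17.8 and 18.8 CPM and then at 15.7, 14.01 and 14.95 CPM, at -0.34 (standard error 0.087, edgeR adjusted p = 0.00281). None of the 3 had overlapping groups, where 65.2% of all genes tested showed no overlap.

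Genes that work with the members were described from lists, where 29.6% of all genes tested were higher and 30.3% were lower. Of 15 spindle and midzone partners, 14 were higher and none was lower, with a median log2 fold change of 0.80, and AURKB, the kinase of the chromosomal passenger complex, did not pass at 0.09 (edgeR adjusted p = 0.395). PRC1, the cargo and partner of KIF4A at the midzone, had 1.19, KIFBP, which binds and holds kinesin motors off microtubules, had 1.21, and the nuclear import factor KPNA2 had 1.18. Of 23 genes of the outer kinetochore and the spindle checkpoint, 16 were higher and 1 was lower, with a median of 0.42. SKA2 and the kinase TTK had 1.06 and 1.02, NUF2 of the NDC80 complex had 0.81, and MAD1L1 was the lower gene at -0.29. BUB1B and MIS12 did not pass, at -0.10 and -0.20 (edgeR adjusted p = 0.237 and 0.111).

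Of 9 genes in a list of CENP-A loading factors and CENP-R (ITGB3BP), 3 were higher and 2 were lower, with a median of 0.05. Of all genes tested 29.6% were higher and 30.3% lower, so these shares are near the background. The chaperone HJURP and its recruiter OIP5 rose by 0.78 and 0.94 on the log2 scale, and NASP by 0.18. NPM1 fell by 0.70 and RBBP7 by 0.27. MIS18A had 0.17 and did not pass (edgeR adjusted p = 0.178), and ITGB3BP, the partner of CENP-O, -P, -Q and -U, had -0.21 (edgeR adjusted p = 0.0584).

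Of 23 cargo adaptors and dynein genes, 12 were higher and 7 were lower, with a median of 0.15. The dynein regulator PAFAH1B1, the dynein chain DYNC1LI2 and KLC1, the light chain of conventional kinesin, had 0.72, 0.70 and 0.46. Other light chains fell, KLC4 by 0.65 and KLC3 by 1.09, and KLC2 had 0.06 (edgeR adjusted p = 0.781). KIFAP3, the accessory subunit of the KIF3 motors, had -0.20 and did not pass (edgeR adjusted p = 0.0986). Of 20 genes of the G1/S transition, 7 were higher and 3 were lower, with a median of 0.16. Their share of higher genes was near the 29.6% over all genes tested. The share of lower genes among the adaptors and dynein genes was near the 30.3% over all genes tested. Among the G1/S genes CDC6 had 0.95 and PCNA had -1.31. The part of cell cycle phase in the changes of the members was not tested.

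The elements shown in the sequences above were counted by class. RefSeq windows from 250 bases before to 50 bases after the start were searched on both strands. Of the 62 members, 42 had a single window and 7 had several and were left out. CENPBD1, CENPJ, KIFC3, KIF19, CENPH, KIF13B, KIF5A, KIF21B, CENPL, KIF26B, KIFC2, KIF27 and CENPM had no entry. A CHR (TTTGAA or TTTAAA) was present in 12 of 13 mitotic kinesins (92.3%), 6 of 15 centromere and kinetochore genes (40.0%) and 2 of 9 transport kinesins (22.2%), against 17.0% of the 9388 protein-coding genes of the table with a single window. CCAAT was present in 10, 9 and 2 of these windows (76.9%, 60.0% and 22.2%), against 37.1%. Both stood together in 10 of 13, 4 of 15 and 1 of 9, against 7.17% of all. KIF2A was the 1 of the 13 without a CHR. Whether these elements go with the size or direction of a change was not tested. These 13 include KIF4B, which was not tested, and leave out KIF22, which has several windows.

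A CCAAT box stood 15 to 45 bases before a CHR in KIF20A, KIF4A, KIF4B, KIF11, KIF14, KIF18A, KIF18B, CENPF and CENPC, and in 1.36% of all 9388 windows. The range was chosen from the positions in these members, so the count and the share are not a comparison. TTGGCA, a longer form of the NFI element, was present in KIF2C, CENPA, CENPU and KIF3B, 4 of 42 members (9.52%), and in 9.78% of all windows. The shorter TTGGC was not counted or marked, and it stands in the lines printed above for KIF20A, KIF4A, KIF18A and CENPA. TTGGCA can overlap a CCAAT box read on the other strand, as it does in KIF3B. The full NFI palindrome was in 0 of 42 members and in 5 of the 9388 windows. These letters are descriptions of the windows searched and show no binding.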

How the data were processed

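Bulk mRNA of 6 THP-1 samples was measured. Per the submitters' processing notes and the study's methods, reads were trimmed with Trim Galore, mapped to GRCh38 with STAR and assigned to genes with featureCounts. Versions and a strand setting are not given in the sources used here. The authors deposited raw counts per gene, a normalized signal (counts scaled by 1 DESeq2 size factor per sample) and FPKM made from the normalized counts. The deposited table also holds the authors' comparison from DESeq2 as log2 fold change with standard error, a Wald score and p-values, and these were not used.

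The counts were tested with edgeR 4.0.16 (R 4.3.3; glmQLFit with robust estimates, glmQLFTest) after TMM normalization and edgeR's filter on low counts, 3 NFIC shRNA against 3 scrambled samples, with Benjamini-Hochberg adjustment over 19182 genes. The standard error is the log2 fold change divided by the square root of F. On simulated counts with 200 changed genes the test recovered 72.7% of those changed by 0.5 and 96.7% of those changed by 1 on the log2 scale. In the data 5676 genes were higher and 5810 lower, and the simulated counts took their spread from the trend over all genes. These percentages therefore need not hold for this comparison. CPM were scaled by TMM factors. FPKM are the deposited values and serve to compare levels between genes. Total counts were between 20369543 and 24809720 per sample.

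Members, classes, lists and tests were chosen with earlier results of these data known. Values in every sample are given, per class, for the member with the highest FPKM, up to 5 with the largest change among those whose mean log2 CPM reached 1, and those against the majority of the class, and any other member may be named. From each list up to 3 genes per direction are named by adjusted p. CDC6, BUB1B, MIS12, MIS18A, AURKB, KLC1, KLC2, KIFAP3, ITGB3BP and 4 of the monocytic markers were named after their values were seen. A gene of the list on CENP-A loading is not reported here. Gene positions and exon overlaps come from GENCODE release 44, not the annotation that was counted, and promoter windows from RefSeq (GRCh38.p14). The labels number C1, C3 and C4, and likewise N1, N2 and N3, as replicates 1 to 3. Correlations across genes between samples of the same number, each taken as the deviation from its group mean, were 0.056 (C1, N1), -0.086 (C3, N2) and -0.045 (C4, N3). When paired by the number in the sample name they were 0.056 (C1, N1) and 0.145 (C3, N3). C4 and N2, which share no number and were paired as the samples left over, had 0.027. Neither numbering was taken to pair samples, since not every correlation was above 0.1. Alternatives were other normalizations, DESeq2 1.42.0, other filters and thresholds, protein-coding genes only, replicate blocks, other class membership, and leaving out samples.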

Additional observations from a re-analysis of the deposited data

How the results depend on the processing

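Across 16 refits that kept the threshold, 48 of the 56 members kept their call and none changed direction. The other 8 were KIF27, CENPU, CENPX, CENPH, CENPS, KIF21B, KIF13B and KIF1A. With a 1.5-fold minimum the genes higher were 7 mitotic kinesins, 9 centromere or kinetochore genes (0 lower), 5 transport and 1 cilium or other kinesin, and over all genes 2118 higher and 3408 lower. With upper-quartile factors 2 centromere or kinetochore genes were lower, CENPT and CENPH. Leaving out C3 and N3 moved the transport median to 0.36 and left 1 lower cilium or other kinesin. For the cilium or other kinesins the median was -0.58 with DESeq2 and -0.59 without the filter on low counts, since 4 genes with almost no counts then enter. By summed CPM the share of mitotic kinesins was 50.95% with scrambled and 50.45% with NFIC shRNA. Leaving out 1 sample gave 13 higher mitotic kinesins in every fit, 14 to 16 higher centromere or kinetochore genes, 8 to 10 higher and 3 or 4 lower transport kinesins. Class medians stayed between 0.52 and 0.68, 0.48 and 0.64, and 0.23 and 0.31. Under the replicate block 13, 15 and 8 genes of these classes were higher and 0, 1 and 4 lower. KIF13B alone lost its call, at an adjusted p of 0.0540 from edgeR, and 1 of 6 samples correlated best with its own number. Blocking by sample name instead, with C4 and N2 paired as the samples left over, KIF21B passed, at 0.0386 from edgeR. Depth limits the members with few counts, such as KIF1A and KIF17, and 6 members could not be tested.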
